A study of Mus musculus with 6 samples.

Results

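AP-1 is a family of transcription factors of the basic leucine zipper (bZIP) class, and 10 of its genes were followed here by symbol among the 54532 genes of the deposited table: Fos, Fosb, Fosl1 and Fosl2 of the Fos family, Jun, Junb and Jund of the Jun family, Batf and Batf3 of the Batf family, and Maff, a small Maf protein. All 10 symbols had a row. The cells were primary bone-marrow-derived macrophages (BMDMs) of C57BL/6 mice, differentiated in medium conditioned by L929 fibroblasts. The 3 groups of 2 RNA-seq libraries were untreated BMDMs, BMDMs stimulated with LPS (100 ng/ml) for 2 h, and BMDMs pretreated with metformin (5 mM) for 6 h before the same LPS stimulation (Met + LPS). LPS is a glycolipid of the bacterial outer membrane that macrophages sense, and metformin is an antidiabetic drug that activates the kinase AMPK. There was no group with metformin and without LPS, so that metformin was compared only in the presence of LPS. Per the study's methods, cells were seeded in duplicate. Neither the methods nor the labels tie the 2 libraries of a group to separate mice, so that p-values measure the spread between these libraries, which may be technical.

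AP-1 binds DNA as a pair of bZIP proteins. Jun proteins can pair with each other or with a Fos protein, whereas Fos proteins bind DNA only together with a partner, usually a Jun protein. The members differ in how strongly they activate transcription, and which pairs can form depends on the members a cell makes. In macrophages, LPS signals through TLR4 to the MAP kinases, which act on AP-1 both through the transcription of its genes and through phosphorylation of its proteins. Fos and Jun are immediate-early genes, transcribed within minutes of a stimulus and soon shut off again. The present data hold transcript levels at a single time and say nothing about protein.

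Expression was deposited as TPM, reads per gene relative to its length and to the sum over all genes of a library, so that levels of different genes can be compared. Reads recovered from these values numbered 25457016 to 30762754 per library. The macrophage label was compared with marker genes: all 8 macrophage markers passed the filter on low values, with a summed level of 44621 to 46599 TPM in untreated, 37412 to 37903 in LPS and 30877 to 30948 in Met + LPS libraries. Markers of other cells summed to at most 6.92 TPM for T, B, dendritic, erythroid and mast cells and fibroblasts. The 7 neutrophil markers summed to 29.9 to 32.6 TPM in untreated, 26.5 to 28.0 in LPS and 43.4 to 45.5 in Met + LPS libraries. In such bulk samples, fewer cells of a type and less RNA per cell cannot be told apart.

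The promoters of 3 members are printed here because Fos and Jun were both lower after LPS and Maff had the largest rise. Each line holds the 200 bases before a RefSeq transcript start (GRCm38.p6), read on the gene's strand. Capitals mark matches, on either strand, to motifs known for AP-1, CREB, MEF2, NF-κB and TATA-binding factors, which were chosen with the expression values and the sequences known.
Fos (chr12:85473690-85473889, plus strand): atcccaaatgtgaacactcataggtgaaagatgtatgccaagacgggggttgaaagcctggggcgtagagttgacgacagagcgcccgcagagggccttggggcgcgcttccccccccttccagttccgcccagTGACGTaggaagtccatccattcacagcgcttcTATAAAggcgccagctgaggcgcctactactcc
Jun (chr4:95052223-95052422, minus strand): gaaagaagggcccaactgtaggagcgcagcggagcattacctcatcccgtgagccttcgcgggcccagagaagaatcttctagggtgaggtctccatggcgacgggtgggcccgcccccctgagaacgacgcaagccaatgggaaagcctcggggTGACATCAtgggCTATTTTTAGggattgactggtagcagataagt
Maff, the second of its 3 starts (chr15:79347320-79347519, plus strand): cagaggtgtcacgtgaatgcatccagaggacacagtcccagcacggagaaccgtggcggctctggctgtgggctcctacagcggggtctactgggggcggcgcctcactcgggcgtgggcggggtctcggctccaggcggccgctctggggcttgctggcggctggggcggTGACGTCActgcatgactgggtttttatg
The Fos window held TGACGT, the core of a cAMP response element, from 66 to 61 bases before the start, and TATAAA from 33 to 28 bases before it. The Jun window held TGACATCA, the variant AP-1 site of this promoter, from 45 to 38 bases before the start, and a MEF2 site from 33 to 24 bases before it. The Maff window held the full palindrome TGACGTCA from 29 to 22 bases before the start, which contains TGACGT on both strands. Among 32851 promoter windows of the same length, TGACGT was found in 5.85%, TGACGTCA in 1.47%, TGACATCA in 2.66%, the MEF2 site in 2.29% and TATAAA in 9.96%. The third Maff window held TGACATCA and an NF-κB (kappa B) site, the Fosl2 window 2 overlapping kappa B sites, the Fosb window 1 such site and the Batf window TGACGT. Kappa B sites were found in 6.07% of all windows. The windows of Junb, Batf3 and Jund and the first window of Maff held none of the motifs searched, which also included TGACTCA, found in 3.66% of windows, and the CArG box, found in 1.18%. Windows were found for 9 of the 10 members, Fosl1 not among them. A match describes these letters only. Not every RefSeq start matched the gene start given below with each gene. The Jund window ended at base 70697738, upstream of the listed gene start at 70698949. The Fosl2 and Batf3 windows began at 32136272 and 191098214, inside genes listed from 32135801 and 191097847. The printed Maff window and the Maff window with the kappa B site began at 79347320 and 79348202, inside the gene listed from 79346621. Matches in these windows, or their absence, thus do not describe the bases before those listed starts. The Maff window that ended at 79346620, just before the listed start, held none of the motifs searched. The Batf window ran from 85686520 to 85686719, past the listed start at 85686669. The Fosb window, on the minus strand, began at 19310046, inside the gene listed up to 19310051.

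Apart from Jund, the group means of the members ranged from 0.420 to 722 TPM. In untreated BMDMs, Junb was highest with 122 ± 0.303 TPM (SD, n = 2), followed by Jun with 104 ± 2.21, Fos with 58.1 ± 2.32, Fosl2 with 12.9 ± 0.614 and Batf with 7.13 ± 0.164. Batf3 and Maff stood at 3.05 ± 0.111 and 2.93 ± 0.123 TPM and were not separated, as their libraries overlapped. Fosl1 and Fosb, at 0.513 ± 0.147 and 0.420 ± 0.120 TPM, were not separated either. After LPS the order became Junb, Batf, Maff, Fosl2, Jun, Fos, Batf3, Fosl1 and Fosb, with each neighbour in it separated from the next by all 4 of their libraries. In Met + LPS libraries the order was Junb, Maff, Batf, Jun, Fos, Fosl2, Fosl1, Batf3 and Fosb, in which Batf at 45.2 ± 0.181 TPM and Jun at 44.4 ± 5.85 TPM were not separated. Fos thus ranked above Fosl2 in untreated and Met + LPS libraries and below it in LPS libraries. Jund was listed at 0 in every library.

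**Figure D1:**
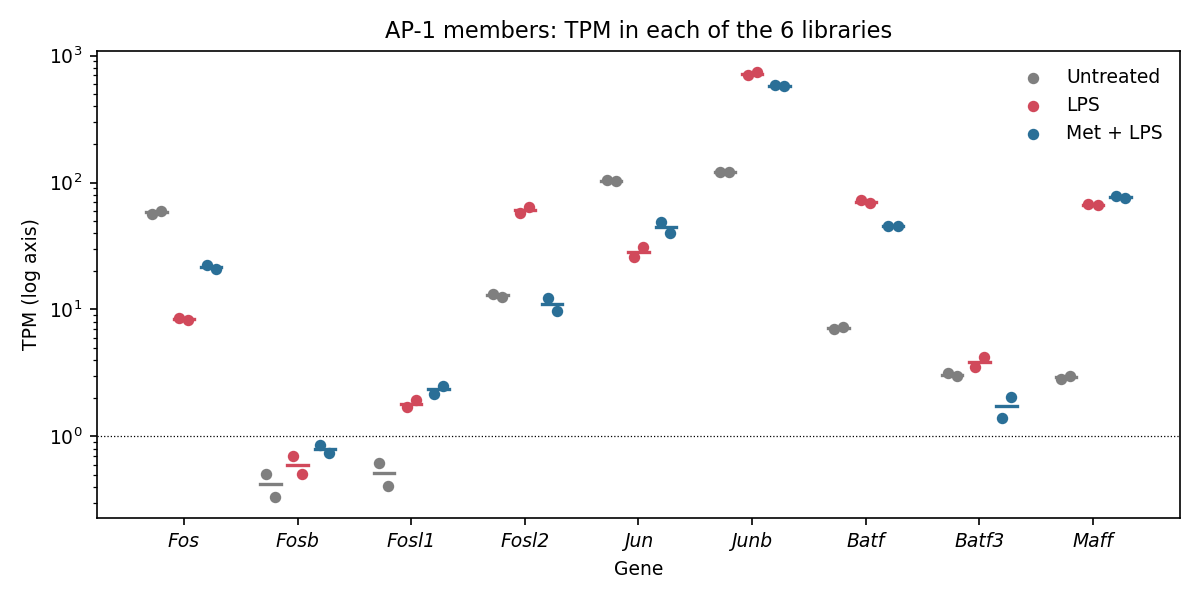
TPM of 9 AP-1 members in each of the 6 libraries, on a log axis, by gene and group, with the mean of each group as a bar and the filter level of 1 TPM as a dotted line; Jund, listed at 0, is not drawn. Fos and Jun are lowest in the LPS libraries and Fosl2 is highest in them, while Junb, Batf and Maff stay far above the untreated level in both groups that received LPS.

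The first question was what LPS alone did to each member. 8 of the 10 members passed the filter of at least 1 TPM in at least 2 libraries. Fosl1 passed it only through the 2 groups that received LPS, where it was higher, so that its rise in the counts below follows in part from the filter and adds no support to them. Of these 8, 5 rose and 2 fell at an adjusted p-value below 0.01 (limma, Benjamini-Hochberg over 12755 tested genes), against a background of 76.3% of all tested genes that passed in either direction, 16.2% higher and 60.1% lower. After rescaling by the median ratio over genes, that background was 30.6% higher and 27.6% lower. With the study's cut-off of 2 on the log2 fold change added, Fosl2, Junb, Batf and Maff rose and Fos fell, where 6.08% of tested genes passed, 3.72% higher and 2.37% lower (5.21% and 1.01% after rescaling). The median log2 fold change on the log2(TPM + 1) scale was 1.52 over the 8 members and -0.48 over all tested genes. The latter became -0.01 with the rescaling, under which the same 7 members passed in the same direction, with Batf3 as the eighth.

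The second question was what metformin pretreatment changed in LPS-stimulated cells. 2 members rose, Fos and Jun, and 4 fell, Fosl2, Junb, Batf and Batf3, at an adjusted p-value below 0.01, where 32.6% of all tested genes passed, 14.5% higher and 18.0% lower. With the study's cut-off of 0.7 on the log2 fold change added, Fos rose and Fosl2 and Batf3 fell, where 8.28% of tested genes passed, 4.19% higher and 4.09% lower. The median log2 fold change was -0.06 over the 8 members and -0.03 over all tested genes. Of these calls, those of Jun and Batf3 depended on single libraries, as given with each gene. Against untreated cells, Met + LPS libraries had 4 members higher, Fosl1, Junb, Batf and Maff, and 3 lower, Fos, Jun and Batf3, where 75.1% of tested genes passed, 16.3% higher and 58.8% lower. The last 2 shares were 33.4% and 29.7% after rescaling. With the cut-off of 2 on the log2 fold change, Junb, Batf and Maff passed, against 5.35% of tested genes, 3.18% higher and 2.16% lower (4.48% and 0.776% after rescaling). The 3 comparisons share libraries and are not independent of each other.

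**Figure D2:**
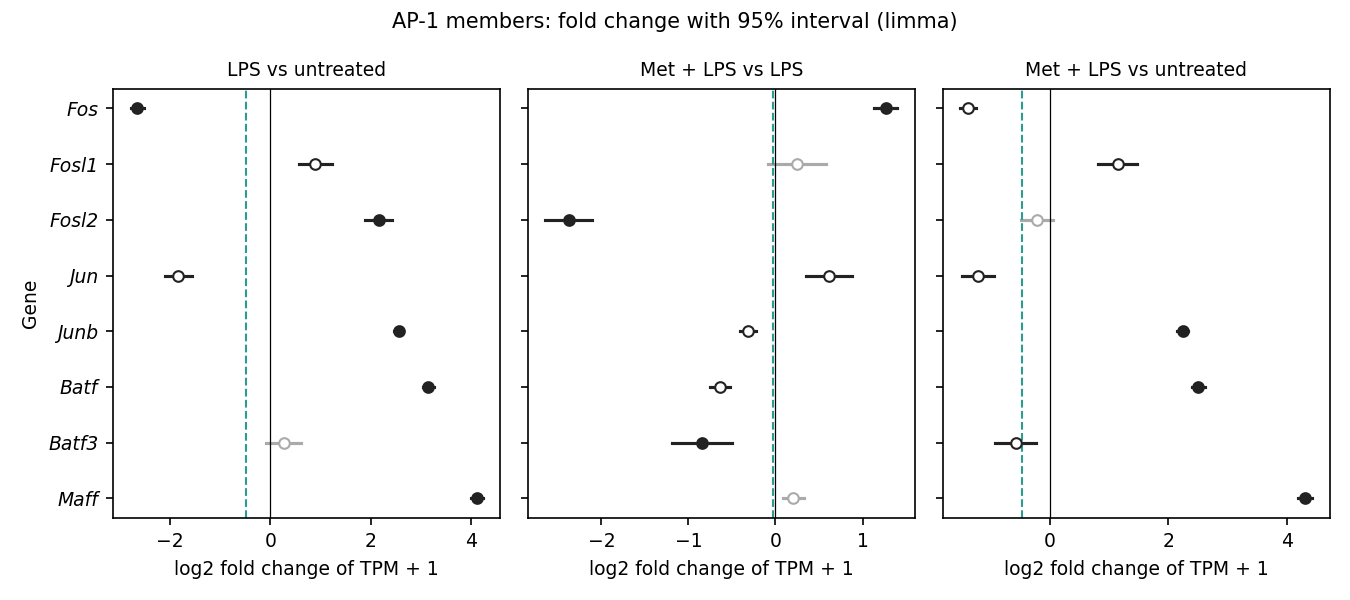
log2 fold change of TPM + 1 with its 95% interval (limma) for the 8 tested members in the 3 comparisons; filled points passed both cut-offs, open black points the adjusted p-value only and grey points neither, and the dashed line is the median of all tested genes. Fos and Fosl2 lie on opposite sides of 0 in LPS vs. untreated and again, exchanged, in Met + LPS vs. LPS.

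Fos encodes c-Fos, a strong activator whose transcript and protein are both short-lived (ENSMUSG00000021250, GRCm38 chromosome 12, 85473890 to 85477273). Its level was 56.4 and 59.7 TPM in untreated cells, 8.55 and 8.21 TPM after LPS alone, and 22.2 and 21.0 TPM with metformin and LPS. The 3 groups did not overlap, with LPS lowest and Met + LPS between the others. These levels rest on 1009 and 1006 reads without treatment, 153 and 141 after LPS and 395 and 437 in Met + LPS libraries. The mean TPM was 6.93-fold lower after LPS, and the fitted change of log2(TPM + 1) was -2.65 ± 0.05 (SE, limma adjusted p = 7.8e-08). With the rescaling that change was -2.15. Met + LPS libraries had a 2.58-fold higher mean than LPS libraries, and the fitted change of log2(TPM + 1) was 1.27 ± 0.05 (limma adjusted p = 1.9e-05). They stayed 2.69-fold below the untreated mean (adjusted p = 1.5e-06 by limma). The fitted change against untreated cells was -1.39 as deposited and -0.86 with the rescaling.

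Fosl2 encodes Fra-2, a Fos protein without the strong activation domain of c-Fos (ENSMUSG00000029135, chromosome 5, 32135801 to 32157842). Its libraries had 13.3 and 12.5 TPM without treatment, 57.3 and 64.7 TPM after LPS, and 12.3 and 9.70 TPM in the Met + LPS group. The LPS libraries stood apart from the other 4, which lay close together. The mean was 4.72-fold higher after LPS, and the fitted change of log2(TPM + 1) was 2.15 ± 0.11 (SE, limma adjusted p = 4.5e-06). In Met + LPS libraries it was 5.55-fold lower than in LPS libraries, and the fitted change of log2(TPM + 1) was -2.38 ± 0.11 (limma adjusted p = 2.2e-05). This was the fourth lowest log2 fold change among the 12755 tested genes in that comparison. Against untreated cells the Met + LPS group differed by a log2 fold change of -0.22, with a 95% interval of -0.49 to 0.05 (adjusted p = 0.104 by limma), so that no difference was detected and one of up to the interval's bounds could be present. With the rescaling this value became 0.28 (adjusted p = 0.065).

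Fosl1 and Fosb were the lowest members with reads in untreated and LPS libraries, while in Met + LPS libraries Batf3 lay between them. Fosl1 encodes Fra-1 (ENSMUSG00000024912, chromosome 19, 5447703 to 5455945), and its libraries had 0.616 and 0.409 TPM without treatment, 1.69 and 1.93 TPM after LPS, and 2.17 and 2.52 TPM in the Met + LPS group. Both LPS libraries lay above both untreated ones, and the fitted change of log2(TPM + 1) was 0.90 ± 0.14 (SE, limma adjusted p = 7.9e-04, and 0.0035 in the fit without the filter), which understates the 3.53-fold ratio of its TPM means because the added 1 outweighs its untreated level. Its Met + LPS libraries lay above its LPS libraries, at a log2 fold change of 0.25 and a 95% interval of -0.08 to 0.58 (adjusted p = 0.181 by limma). Fosl1 rests on 5 to 38 reads per library, and 45.5% of the 31-base stretches of its annotated transcripts occur in no other gene, so that its level is uncertain. Fosb, a close relative of Fos with a shorter isoform that lacks part of the activation domain (ENSMUSG00000003545, chromosome 7, 19302696 to 19310051), had 0.506 and 0.335 TPM without treatment, 0.694 and 0.505 TPM after LPS, and 0.848 and 0.742 TPM in the Met + LPS group. It did not reach the filter in any library. Fitted without the filter, its log2 fold changes were 0.17 for LPS vs. untreated, 0.17 for Met + LPS vs. LPS and 0.34 for Met + LPS vs. untreated (adjusted p = 0.291, 0.416 and 0.057 by limma).

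Most of the Fos family TPM was that of Fos in untreated cells and that of Fosl2 after LPS. The summed TPM of the 4 Fos genes was 70.9 and 72.9 without treatment, 68.2 and 75.4 after LPS, and 37.5 and 33.9 in the Met + LPS group. Untreated and LPS libraries overlapped in this sum as deposited, but after rescaling it was 55.5 and 56.9 without treatment against 76.5 and 85.1 with LPS, so that its direction with LPS depends on the scaling. The Met + LPS libraries lay below all others under both scalings, at 42.6 and 38.6 after rescaling. Fos made up 80.7% ± 1.61 (SD, n = 2) of it without treatment, 11.7% ± 1.15 after LPS and 60.5% ± 1.84 in Met + LPS libraries. Fosl2 made up 18.0% ± 1.21, 84.9% ± 1.35 and 30.6% ± 2.93 in the same order. Counted in reads, which are not divided by length, Fosl2 with its 9680 exon bases held 47.1%, 95.7% and 63.8% and Fos with 2352 exon bases held 51.5%, 3.21% and 30.7%. The order of the groups was the same in reads, but the larger share in Met + LPS libraries was that of Fos in TPM and of Fosl2 in reads. These shares are descriptions without a test, and the exact permutation test of a single value cannot go below p = 0.333 with 2 libraries against 2.

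**Figure D3:**
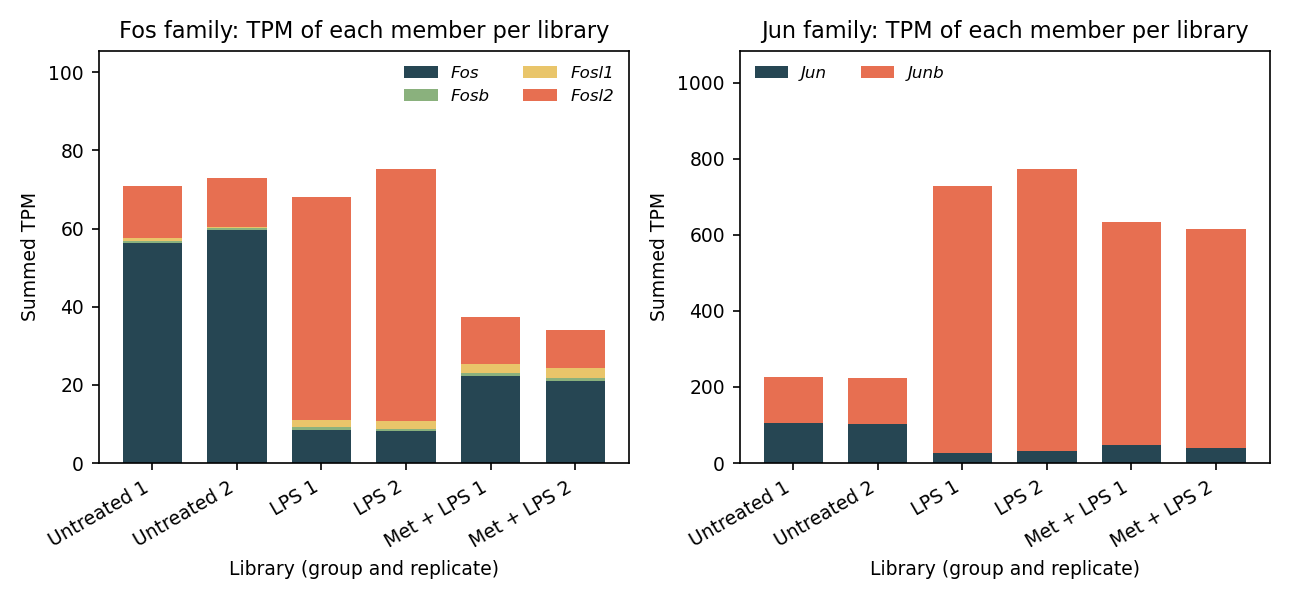
Stacked bars of the TPM of each Fos family member (left) and of Jun and Junb (right) in the 6 libraries, on linear axes that start at 0. The Fos family sum as deposited, which rescaling would raise in LPS against untreated libraries, is made mostly of Fos in the latter and of Fosl2 in the former. Junb makes up most of the summed TPM of Jun and Junb in every library, with Jund listed at 0 and not drawn.

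Jun encodes c-Jun, the strongest activator of the Jun family (ENSMUSG00000052684, chromosome 4, 95049034 to 95052222). It had 105 and 102 TPM in untreated cells, 25.9 and 31.2 TPM after LPS alone, and 48.5 and 40.2 TPM with metformin and LPS. As with Fos, the groups did not overlap and LPS was lowest. The mean was 3.63-fold lower after LPS, and the fitted change of log2(TPM + 1) was -1.83 ± 0.11 (SE, limma adjusted p = 8.6e-06). With the rescaling that change was -1.31. The mean was 1.55-fold higher in Met + LPS than in LPS libraries, and the fitted change of log2(TPM + 1) was 0.62 ± 0.11 (limma adjusted p = 0.0041). Without either untreated library, without LPS replicate 1 or without Met + LPS replicate 1, the adjusted p-value of that rise was 0.020 to 0.023. The overlapping gene Junos covers 7.28% of the exon bases of Jun.

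Junb encodes a Jun protein that activates more weakly than c-Jun and can antagonise it (ENSMUSG00000052837, chromosome 8, 84974484 to 84978718). Jund, listed at 0, could not be ranked, and among the other members Junb was the most abundant in all 6 libraries. It had 122 TPM in both untreated libraries, 702 and 743 TPM after LPS, and 584 and 575 TPM in the Met + LPS group. The mean was 5.93-fold higher after LPS, and the fitted change of log2(TPM + 1) was 2.56 ± 0.04 (SE, limma adjusted p = 1.6e-08). Junb was 1.25-fold lower in Met + LPS than in LPS libraries, a small change of -0.32 ± 0.04 on the log2 scale that exceeded the spread between libraries (adjusted p = 6.9e-04 by limma). It stayed 4.76-fold above the untreated mean. Within the summed TPM of Jun and Junb, the share of Jun was 46.0% ± 0.591 (SD, n = 2) without treatment, 3.80% ± 0.331 after LPS and 7.10% ± 0.794 in Met + LPS libraries. Exons of Prdx2 overlap 7.52% of the exon bases of Junb.

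Jund, the third Jun gene and one that many cells express without a stimulus (ENSMUSG00000071076, chromosome 8, 70698949 to 70700616), was listed at 0 TPM in all 6 libraries. The antisense gene Gm11175 (minus strand, chromosome 8, 70699162 to 70700080), whose exons cover 52.6% of the 1668 exon bases of Jund, was listed at 0 as well. The remaining 791 bases of Jund are shared with no other annotated exon. No value for Jund could be compared between groups, and a listed 0 does not show that the gene is silent.

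Batf encodes a bZIP protein without an activation domain of its own, which pairs with Jun proteins and binds DNA together with IRF factors (ENSMUSG00000034266, chromosome 12, 85686669 to 85709087). Its libraries had 7.02 and 7.25 TPM without treatment, 72.7 and 68.8 TPM after LPS, and 45.1 and 45.3 TPM in the Met + LPS group. The groups did not overlap. The mean was 9.92-fold higher after LPS, and the fitted change of log2(TPM + 1) was 3.14 ± 0.05 (SE, limma adjusted p = 1.9e-08). It was 1.57-fold lower in Met + LPS than in LPS libraries, and the fitted change of log2(TPM + 1) was -0.63 ± 0.05 (limma adjusted p = 1.1e-04), which lies just under the size cut-off of 0.7. Against untreated cells it remained 6.34-fold higher.

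Batf3 is best known as a factor that dendritic cells of the cross-presenting type require (ENSMUSG00000026630, chromosome 1, 191097847 to 191108945). Its libraries had 3.13 and 2.97 TPM without treatment, 3.54 and 4.20 TPM after LPS, and 1.41 and 2.05 TPM in the Met + LPS group. LPS vs. untreated gave a log2 fold change of 0.26 with a 95% interval of -0.08 to 0.61 (adjusted p = 0.127 by limma), and 0.66 with an adjusted p of 0.0066 after rescaling. In Met + LPS libraries the mean was 2.24-fold lower than in LPS libraries, and the fitted change of log2(TPM + 1) was -0.84 ± 0.14 (SE, limma adjusted p = 0.0034). That call was lost without any 1 library other than Met + LPS replicate 2, with adjusted p-values of 0.012 to 0.025. Against untreated cells the log2 fold change was -0.58 (adjusted p = 0.0078 by limma), and -0.20 (adjusted p = 0.257) after rescaling. Batf3 rests on 17 to 49 reads per library. The 6 dendritic cell markers summed to 2.12 to 3.47 TPM in untreated, 3.21 to 3.33 in LPS and 5.21 to 5.42 in Met + LPS libraries, where Batf3 was lowest. Of these markers, Flt3 stayed at or below 0.107 TPM, Clec9a at or below 0.320 and Cd209a at or below 0.441. Zbtb46 had 0.108 and 0.164 TPM without treatment, 1.53 and 1.14 after LPS and 0.824 and 0.744 in Met + LPS libraries. Xcr1 had 0.0886 and 0.0313, 0.561 and 0.831, and 1.13 and 1.17 TPM in the same order, and Ccr7 had 1.33 and 2.47, 0.996 and 1.04, and 3.28 and 3.08 TPM. Zbtb46 was thus highest with LPS, and Xcr1 and Ccr7 were highest in Met + LPS libraries. The part of such cells in the Batf3 values was not tested.

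Maff encodes a small Maf protein, which has no activation domain and pairs with other small Maf proteins or with CNC factors such as Nrf2 and Bach1 (ENSMUSG00000042622, chromosome 15, 79346621 to 79359076). It showed the largest rise of the 8 tested members. Its libraries had 2.84 and 3.01 TPM without treatment, 67.2 and 66.0 TPM after LPS, and 78.9 and 75.0 TPM in the Met + LPS group. The mean was 22.8-fold higher after LPS, and the fitted change of log2(TPM + 1) was 4.11 ± 0.05 (SE, limma adjusted p = 8.4e-09), which ranked 125 from the highest among the 12755 tested genes. Both Met + LPS libraries lay above both LPS libraries, at a log2 fold change of 0.21 with a 95% interval of 0.09 to 0.32 (adjusted p = 0.014 by limma), which missed the threshold of 0.01. It passed that threshold with the rescaling (adjusted p = 0.0096) and with limma voom on recovered reads (adjusted p = 7.9e-04). Maff was the only tested member with a mean above its LPS level in Met + LPS libraries among the 4 that passed both cut-offs upwards with LPS.

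Over all members, the summed TPM was 311 ± 0.288 (SD, n = 2) without treatment, 964 ± 35.0 after LPS and 784 ± 17.3 in Met + LPS libraries. After rescaling the means of these sums were 243, 1085 and 891 in the same order. Jund entered these sums at its listed 0, which does not show that the gene is silent. Junb made up 39.2%, 74.9% and 74.0% of these sums on average, and the shares of Fos and Jun together lay above that of Junb without treatment and far below it in both other groups. Fos held 18.7% ± 0.765 without treatment, 0.870% ± 0.0559 after LPS and 2.76% ± 0.0496 in Met + LPS libraries. Jun held 33.4% ± 0.680, 2.96% ± 0.280 and 5.65% ± 0.622. Maff went from 0.942% ± 0.0406 to 6.91% ± 0.334 and 9.82% ± 0.139. A share within a library does not depend on the scaling between libraries. These shares did not overlap between any of the 3 groups for Fos, Jun and Maff. The same held for the shares of Fosb, Fosl2, Junb, Batf and Batf3, so that it does not set Fos, Jun and Maff apart. How often genes in general separate in this way was not computed, so that no result about the members is read from it. Shares of Fosl1 overlapped between untreated and LPS libraries.

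Other genes of the AP-1 pathway were described by lists, whose counts stand beside the shares over all tested genes, 16.2% higher and 60.1% lower with LPS and 14.5% higher and 18.0% lower in Met + LPS vs. LPS. Of 20 further AP-1 and bZIP partners, 18 were tested, of which 6 rose, 8 fell and 4 did not pass with LPS, while 7 rose, 5 fell and 6 did not pass in Met + LPS vs. LPS. Mafa (named after its values were seen) passed the filter only through the untreated group, where it was highest. Its fall with LPS thus adds no support to the count of partners that fell. After rescaling, 9 rose and 5 fell with LPS, where 30.6% of all tested genes were higher and 27.6% lower. The balance of this list with LPS thus turned with the scaling, as did that of all tested genes, while the list's counts in Met + LPS vs. LPS did not change. The median log2 fold change of these 18 was 0.18 in the latter comparison, beside -0.03 over all tested genes. Ddit3, which encodes the stress-response factor CHOP, had 45.9 ± 1.36 TPM (SD, n = 2) without treatment, 13.3 ± 0.175 after LPS and 50.9 ± 1.28 in Met + LPS libraries. Mafg, a small Maf gene like Maff, had 75.7 ± 2.18, 26.2 ± 0.858 and 62.7 ± 0.467 TPM in the same order. Both fell with LPS and rose in Met + LPS vs. LPS, with log2 fold changes of 1.86 and 1.23 (adjusted p = 4.4e-06 and 9.9e-06 by limma). Batf2, a relative of Batf, rose with LPS from 4.77 ± 0.846 to 62.5 ± 7.13 TPM and was lower with metformin, at 28.7 ± 0.633 TPM (-1.09 on the log2 scale, limma adjusted p = 4.6e-04). Bach2, a CNC-type repressor, had 0.893 ± 0.0473, 0.451 ± 0.0533 and 1.76 ± 0.0211 TPM in the 3 groups, with a log2 fold change of 0.93 in Met + LPS vs. LPS (adjusted p = 0.0016 by limma). It reached the filter only through the Met + LPS group, where it was highest, and had an adjusted p of 0.0032 by limma in the fit without the filter. The rise of Bach2 thus adds no support to the count of partners that rose in Met + LPS vs. LPS.

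Of 24 kinases upstream of AP-1, 23 were tested. With LPS 8 rose, 12 fell and 3 did not pass, and in Met + LPS vs. LPS 3 rose, 9 fell and 11 did not pass. Map2k6 (named after its values were seen) passed the filter only through the untreated group, where it was highest. Its fall with LPS thus adds no support to the count of kinases that fell. Of all tested genes, 16.2% rose and 60.1% fell with LPS, and 14.5% rose and 18.0% fell in Met + LPS vs. LPS. The median log2 fold change of the kinases was -0.30 with LPS and -0.15 in Met + LPS vs. LPS, beside -0.48 and -0.03 over all tested genes. After rescaling, 12 kinases rose and 5 fell with LPS, the reverse balance, and 4 rose and 9 fell in Met + LPS vs. LPS. The shares over all tested genes turned with the rescaling too, to 30.6% higher and 27.6% lower with LPS. In Met + LPS vs. LPS they became 15.6% higher and 17.4% lower. Map3k8 encodes TPL2, the kinase that links TLR4 to ERK. It rose with LPS from 18.4 ± 1.5 to 133 ± 3.63 TPM (SD, n = 2) and stood at 69.0 ± 0.0694 TPM in Met + LPS libraries, a log2 fold change of -0.94 against LPS (limma adjusted p = 5.8e-05). Rps6ka5 encodes MSK1, a kinase that phosphorylates CREB and histone H3. It had 3.55 ± 0.0533, 11.5 ± 0.452 and 6.50 ± 0.182 TPM in untreated, LPS and Met + LPS libraries, and rose with LPS and fell with metformin. Gsk3b, whose kinase marks c-Jun for degradation, and Mapk7, which encodes ERK5, a kinase that activates MEF2 factors, went the other way. Gsk3b had 47.3 ± 0.461, 32.3 ± 0.0599 and 63.9 ± 1.16 TPM in the 3 groups. Mapk7 had 37.6 ± 1.58, 8.81 ± 0.0181 and 15.1 ± 1.38 TPM. Both fell with LPS, Gsk3b only as deposited (-0.54, and -0.02 after rescaling), and both rose in Met + LPS vs. LPS, by 0.96 and 0.71 on the log2 scale (adjusted p = 1.4e-05 and 3.7e-04 by limma).

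All 14 factors listed as switching on Fos and Jun were tested, such as SRF partners, CREB and MEF2 proteins. With LPS 2 rose, 10 fell and 2 did not pass, where 16.2% of all tested genes rose and 60.1% fell. The median log2 fold change was -0.50, beside -0.48 over all tested genes. After rescaling 3 rose and 4 fell with LPS, where 30.6% of all tested genes rose and 27.6% fell. In Met + LPS vs. LPS 7 rose, 3 fell and 4 did not pass, where 14.5% of all tested genes rose and 18.0% fell. The median there was 0.24, beside -0.03 over all tested genes. Mef2d, a MEF2 factor, had 73.8 ± 1.17 TPM (SD, n = 2) without treatment, 21.1 ± 0.149 after LPS and 36.4 ± 2.80 in Met + LPS libraries, and the rise in the last comparison had a log2 fold change of 0.76 (limma adjusted p = 1.2e-04). Stat3, which mediates signals of IL-6 and IL-10, had 63.6 ± 1.02, 82.6 ± 6.47 and 48.9 ± 0.920 TPM and fell in Met + LPS vs. LPS by 0.74 on the log2 scale (adjusted p = 1.3e-04 by limma).

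Of 20 genes widely used as AP-1 targets, 19 were tested. With LPS 15 rose, 3 fell and 1 did not pass, before and after rescaling, with a median log2 fold change of 2.85 as deposited, beside -0.48 over all tested genes. 5 of the 19, Areg, Csf2, Hbegf, Il6 and Mmp14 (named after their values were seen), stayed below 1 TPM in untreated cells and passed the filter only through the groups that received LPS, so that their rise with LPS adds no support to that count. Of all tested genes, 16.2% rose and 60.1% fell with LPS as deposited, and 30.6% rose and 27.6% fell after rescaling. In Met + LPS vs. LPS 8 rose, 6 fell and 5 did not pass, with a median of 0.26 beside -0.03, where 14.5% of all tested genes rose and 18.0% fell. Mmp14, a membrane-bound matrix protease, rose from 0.396 ± 0.0958 TPM (SD, n = 2) without treatment to 46.8 ± 1.25 TPM with LPS and stood at 13.4 ± 0.170 TPM in Met + LPS libraries. Timp1, an inhibitor of matrix proteases, had 1.23 ± 0.267, 18.9 ± 1.20 and 4.80 ± 1.21 TPM. Their log2 fold changes in Met + LPS vs. LPS were -1.73 and -1.79 (adjusted p = 1.6e-05 and 2.3e-04 by limma). Vegfa, an angiogenic growth factor, had 40.7 ± 3.98 TPM without treatment, 5.18 ± 0.133 after LPS and 18.8 ± 1.23 in Met + LPS libraries, the order of groups that Fos had. Areg, a ligand of the EGF receptor, was listed at 0 in both untreated libraries, and had 1.55 ± 0.202 TPM after LPS and 5.43 ± 0.601 TPM in Met + LPS libraries. Vegfa and Areg rose in Met + LPS vs. LPS by 1.68 and 1.34 on the log2 scale (adjusted p = 2.5e-05 and 3.5e-04 by limma).

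**Figure D4:**
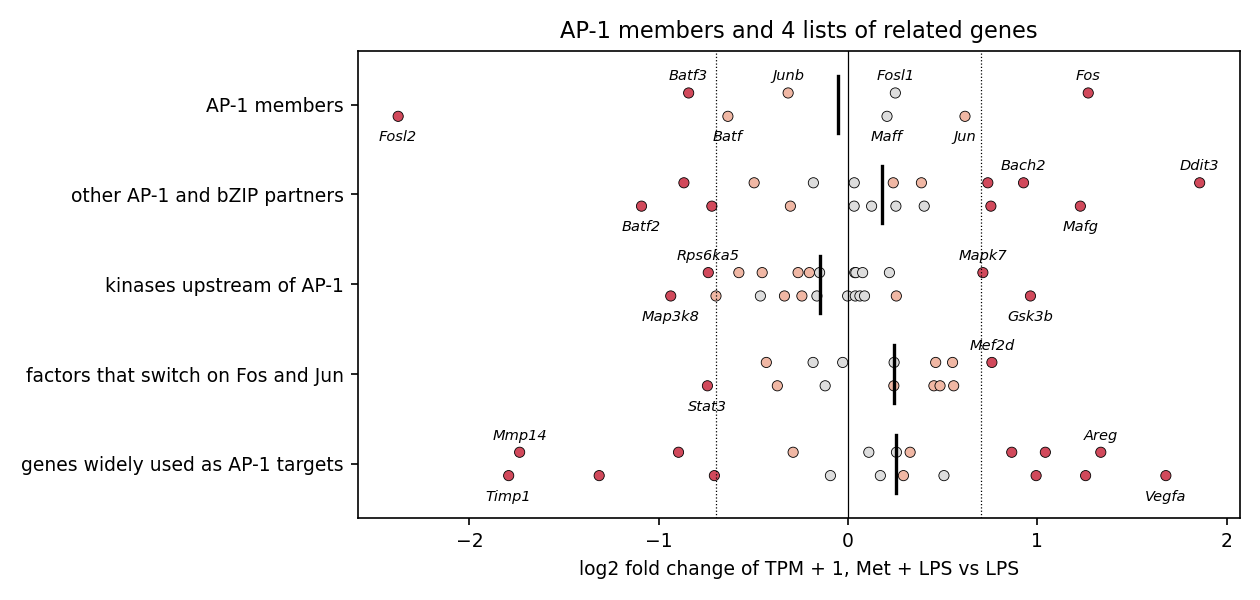
log2 fold change of TPM + 1 in Met + LPS vs. LPS for the 8 tested AP-1 members and the tested genes of the 4 lists; each point is a gene, dark red passed both cut-offs, light red the adjusted p-value only and grey neither, black bars are medians and dotted lines the cut-off of 0.7. Every list has genes on both sides of 0, and Fosl2 at -2.38 lies farther from 0 than any other gene drawn.

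The genes whose pattern over the 6 libraries lay nearest to that of Fos, Jun and Fosl2 were found by the Euclidean distance between log2(TPM + 1) values, each centred on its mean. Nearest to Fos were Snx24 at a distance of 0.16, Mrgpre at 0.16 and Cln8 at 0.23. Snx24, for example, had 98.0 TPM on average without treatment, 13.7 after LPS and 36.3 in Met + LPS libraries. Nearest to Jun were Speg at 0.14, Mkl1 at 0.15 and Il21r at 0.19, of which Mkl1 had means of 101, 27.7 and 41.5 TPM. Fosl2 had no neighbour as close: Steap4 lay at 0.62, B3gnt7 at 0.68 and Mir5119 at 0.69. Steap4 had 0.0208, 3.0 and 0.159 TPM, B3gnt7 had 0.530, 4.83 and 0.607 TPM, and Mir5119 was listed at 0 in all untreated and Met + LPS libraries. The added 1 outweighs these low levels and shrinks the changes of all 3 genes, so that their ratios of TPM can differ from those of Fosl2. All 3 had means below 1 TPM in untreated and Met + LPS libraries and passed the filter through the LPS group, where they were highest. Their likeness to Fosl2 thus follows in part from the filter. These distances are descriptions over 6 libraries.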

How the data were processed

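RNA-seq of poly-A RNA was performed on 6 libraries of primary mouse BMDMs in 3 groups of 2. Per the labels and the methods, the authors aligned single-end reads to GRCm38 (mm10) with STAR 2.6.1d, converted the alignments to BAM with SAMtools 1.9, and counted reads per gene with featureCounts (Subread 1.6.3). The authors deposited TPM values for 54532 genes. How counts were turned into TPM and whether counting used strand are not given in the sources used here. Members were found by gene symbol, and members, lists, motifs and named genes were chosen with earlier results of these data known. Named genes are all members, at most 4 genes per list with the largest change among those past both cut-offs in Met + LPS vs. LPS, and the 3 tested genes nearest to Fos, Jun and Fosl2. Genes listed elsewhere under Mrtfa and Mrtfb appear as Mkl1 and Mkl2.

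Genes reaching 1 TPM in 2 or more libraries were tested on log2(TPM + 1) with limma 3.58.1 in R 4.3.3 (lmFit, eBayes with trend, 1 fit of all 6 libraries, 3 residual degrees of freedom, two-sided, Benjamini-Hochberg adjustment over 12755 genes). A pseudocount of 1 shrinks fold changes of low genes. Calls used an adjusted p-value below 0.01, alone or with a cut-off on the size of the log2 fold change (0.7 for Met + LPS vs. LPS and 2 for the others). TPM values sum to the same total in every library, so that a rise of some genes lowers others. Rescaling by the median ratio was the alternative. Multiplied by exon length (GENCODE M21, 54495 genes matched), 96.4% to 96.6% of values above 0 were whole reads within 0.05, from 25457016 to 30762754 per library. For 385 genes, Fosl1 among them, the length listed by the authors was used. The test was tested on simulated data. Replicates of a group differed beyond counting noise, with a chi-square of 1.89 to 3.47 per degree of freedom and each library was counted as 1 replicate. Tables and figures were made in Python 3.11.15 with pandas 2.3.3, numpy 2.4.6 and matplotlib 3.10.9. Exons are those of GENCODE, promoter windows those of RefSeq (GRCm38.p6).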

Additional observations from a re-analysis of the deposited data

How the results depend on the processing

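Fits were repeated with 0.1 added to TPM in place of 1, without the filter, with genes of at least 5 TPM, after rescaling by the median ratio, on the 2 groups of a comparison alone, with the replicate number as a block, with eBayes that ignored the trend, with calls at an adjusted p-value of 0.05, by limma voom on recovered reads (12418 genes), and with each library left out in turn. Of 330 recomputed fold changes of the 8 tested members, 301 kept their direction and their side of the threshold, 24 no longer passed it, 4 newly passed it and 1 reversed. The reversed value was that of Fosl2 in Met + LPS vs. untreated, which became 0.28 (adjusted p = 0.065) with the rescaling and had not passed before. Every lost call was that of Jun or Batf3, and the cause was not tested. Jun in Met + LPS vs. LPS was also lost without the filter, in the fit of the compared groups and without a trend (adjusted p = 0.025, 0.021 and 0.016). Batf3 was lost in that comparison without the filter and in the fit of the compared groups (adjusted p = 0.021 and 0.016), and in Met + LPS vs. untreated in 10 of 13 alternatives. Leaving out 1 library gave 2 to 4 members past both cut-offs in Met + LPS vs. LPS and 4 to 6 at the adjusted p-value alone, where 3 and 6 were found with all libraries. Without Met + LPS replicate 2, Jun joined Fos, Fosl2 and Batf3. The lone library then left in a group is assumed to vary like the others. The sample titles mark the libraries of each group A and B. The differences between replicates correlated at -0.00365, 0.0284 and 0.00624 between groups, so that no effect shared by replicate number was seen. Whether A and B were prepared as sets cannot be told from these values. With the replicate block, the counts past both cut-offs were 5, 3 and 3 in LPS vs. untreated, Met + LPS vs. LPS and Met + LPS vs. untreated, as without it, and no call of a member changed. Shares in recovered reads differed from shares of TPM because members differ in length. Shares within the Fos family and their alternatives were added after seeing the data. Fosl1, Fosb and Batf3 rest on under 50 reads per library, which limits their precision.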
